A study of Mus musculus with 3 samples.

Results

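The 10 genes of this group encode helix-loop-helix transcription factors and their inhibitors, and were examined in the genital tubercle, the bud from which the external genitalia develop. They were the basic helix-loop-helix (bHLH) factors Hand1, Hand2 and Tcf21, the bHLH-PAS factors Sim1 and Sim2, the inhibitors Id1, Id2, Id3 and Id4, and the E-protein Tcf4. Members were every probe set annotated to exactly 1 gene symbol that is one of these names. This gave 25 probe sets of 10 genes, out of 45037 probe sets analysed and 18193 genes. The rule used no measured value, though the members were chosen with earlier results of these data known.

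The tissue came from 3 mouse embryos labelled male at E14, Theiler stage 22, 1 unpooled sample per array. Their mothers were FVB/N females mated to SMAA/EYFP transgenic males, and the SMAA/EYFP reporter, named for Acta2 (smooth muscle actin), guided the dissection. All samples carry the same strain, sex and reporter labels and there is no control group, treatment or second genotype. They differ in 1 label, the developmental landmark, with fingers visible in replicate 3 and footplate borders indented in replicates 1 and 2. Each sample is a mixture of cell types, so fewer cells of a type and less RNA per cell cannot be told apart in any value below.

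bHLH factors bind the E-box, a short DNA element, as dimers, and most tissue-restricted members such as Hand and Tcf21 pair with a broadly expressed E-protein, of which Tcf4 is one. Tcf4 is distinct from Tcf7l2, the Wnt effector that has also been called TCF4. Id proteins have the helix-loop-helix but lack the basic region that touches DNA, so they hold E-proteins in dimers that cannot bind. Id1, Id2 and Id3 are well-known transcriptional targets of BMP signalling. Sim proteins pair instead with Arnt or Arnt2. Hand2 acts in heart and limb bud, where it lies upstream of Shh, and Tcf21 marks mesoderm of kidney, lung, gonad and epicardium.

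A threshold for background was set per sample at the 95th percentile over 83 sensory receptor probe sets (olfactory, vomeronasal and taste), which came to 197.3 signal units in replicate 3, against 134.8 and 251.3 in replicates 1 and 2. Differences between samples are given on a log2 scale after the samples were aligned on the median of probe sets above background in 3 of 3, and signals are given as deposited. A list of genital tubercle genes was read as a check, which does not by itself tell this tissue from others that express them. Hoxd13, Shh, Isl1, Tbx4 and Prrx1 were above background in 3 of 3 samples, while the probe set of Hoxa13 was above it in replicate 1 alone. The sex label went against the data in replicate 3. There Xist, the RNA of the inactive X chromosome, read 61883, against 8.05 and 118 in replicates 1 and 2. The Y-linked gene Eif2s3y read 37.9 in replicate 3, below background, against 4384 and 3738. Markers of other tissues differed as well. Liver markers (7 measured) summed to 9260 signal units in replicate 3, against 113802 and 52302 in replicates 1 and 2. Skeletal muscle markers (8 measured) summed to 3005 in replicate 3, against 24413 and 7015. The landmark, the sex of replicate 3 and these differences cannot be told apart in any contrast of that sample.

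Of the 10 genes, 7 were above background in 3 of 3 samples on their brightest probe set, where 60.6% of all genes were. These were Hand2, Sim1, all 4 Id genes and Tcf4. Hand1 and Tcf21 were above background in 1 sample each, and Sim2 in none, as were 26.6% of all genes. By probe set, 15 of 25 were above background in 3 of 3 samples, where 48.1% of all probe sets were. A further 1 was above it in 2 samples, 3 in 1 sample and 6 in none. The 7 genes were the same number when replicate 3, whose sex label is in doubt, was left out, and when either other sample was.

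**Figure D1:**
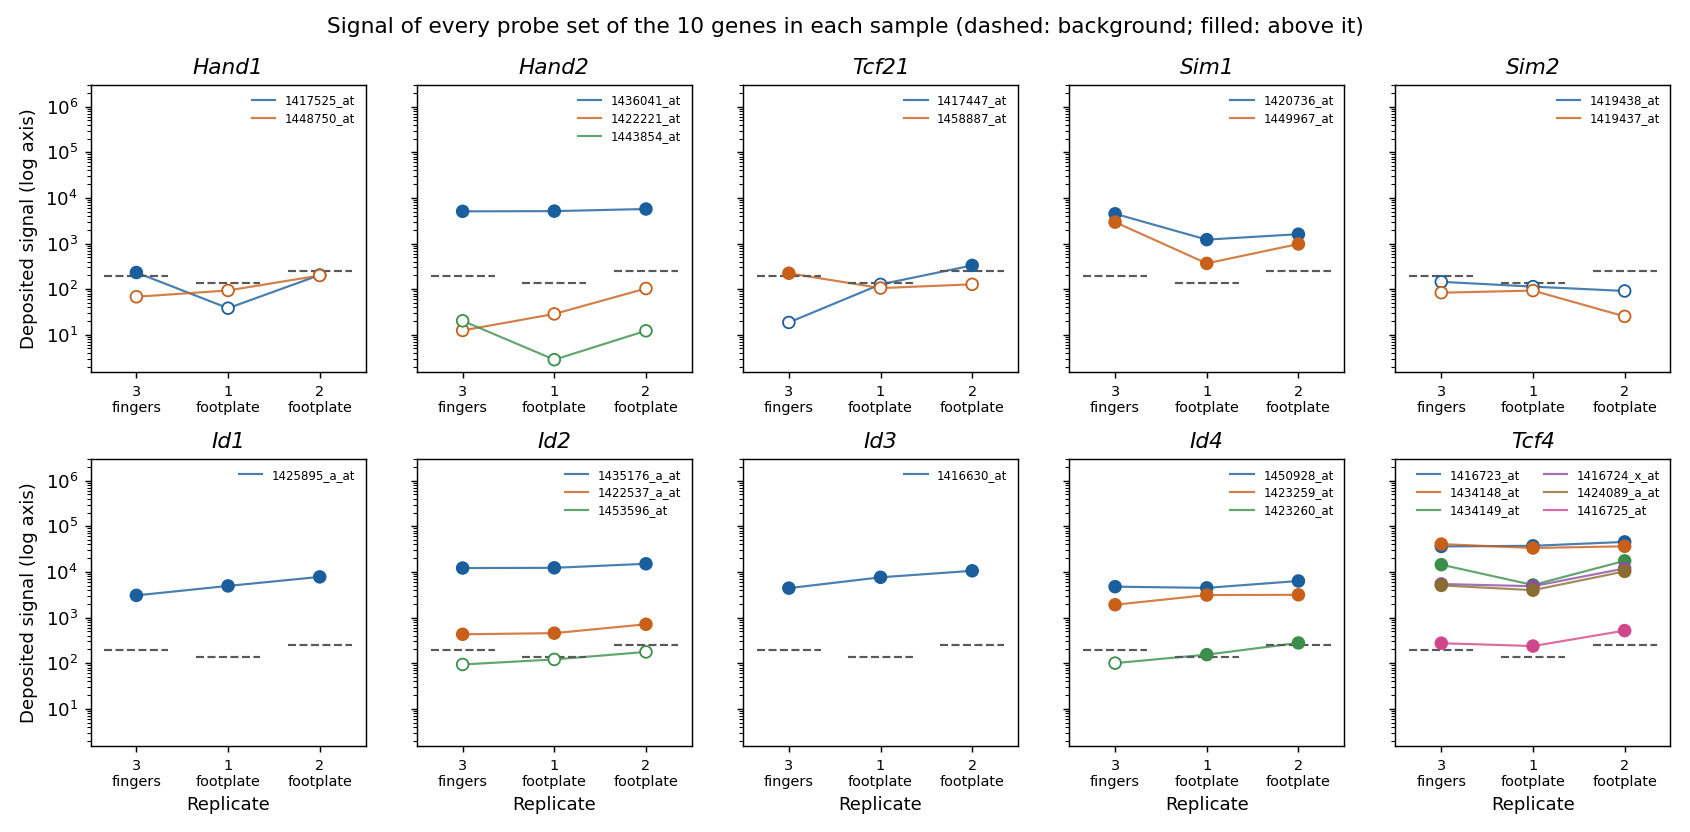
Deposited signal (log axis) of each of the 25 probe sets in replicate 3 (fingers visible) and replicates 1 and 2 (footplate borders indented), 1 panel per gene and 1 colour per probe set. Dashed lines are each sample's background and filled points lie above it; both Sim1 probe sets are highest in replicate 3, and Hand2 has 1 bright probe set and a pair at or below background.

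Among the Hand genes, Hand2 alone was above background in 3 of 3 samples. Its probe set 1436041_at had a signal of 5076 in replicate 3, against 5130 and 5716 in replicates 1 and 2 (mean 5307 ± 355, SD, n = 3). The samples lay within an SD of 0.05 on the aligned log2 scale, and 1.81% of the 21659 probe sets above background in 3 of 3 had a smaller SD. That SD depends on the scaling, and was 0.095 without alignment, 0.128 with quantile normalization and 0.288 with alignment on all probe sets, with a different order of samples under each. The other Hand2 probe sets were above background in no sample. 1422221_at read 12.4 in replicate 3, against 28.6 and 103 in replicates 1 and 2. 1443854_at read 20.2 in replicate 3, against 2.84 and 12.2. Thus 1 of 3 Hand2 probe sets carries the gene's value, and the signal of different probe sets cannot be compared as amounts of RNA.

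The Hand2 promoter window is shown because Hand2 is the bright Hand gene of this tissue and its upstream sequence holds the E-box letters that bHLH dimers recognise. Windows here are the 250 bases before the annotated start, from RefSeq, and 6 of the 10 genes had one, namely Hand2, Tcf21, Sim1, Id2, Id3 and Id4. Capitals mark E-boxes (CANNTG, which covers both strands).
Hand2 (GRCm38.p6, chr8:57320733-57320982, plus strand): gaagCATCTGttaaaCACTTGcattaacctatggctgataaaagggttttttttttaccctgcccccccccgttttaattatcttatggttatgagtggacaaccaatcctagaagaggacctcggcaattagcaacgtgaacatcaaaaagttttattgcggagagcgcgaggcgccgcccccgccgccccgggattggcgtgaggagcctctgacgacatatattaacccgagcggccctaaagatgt
Hand2 had 2 E-boxes in this window. At least 1 was found in 66.2% of the 32851 windows of the same length, so its presence does not set Hand2 apart.

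Hand1, a related factor of heart, placenta and other embryonic tissues, was at the edge of detection. 1417525_at read 231 in replicate 3, against 38.2 and 204 in replicates 1 and 2, and passed background in replicate 3 alone. There it was at least 1.61-fold higher than in replicate 1 and at least 1.01-fold higher than in replicate 2. 1448750_at read 68.1 in replicate 3, against 93.5 and 199, and passed in no sample. The probe sets do not rank the samples in the same order, so no order of Hand1 levels can be given.

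Tcf21 was likewise near background. 1417447_at read 18.6 in replicate 3, against 127 and 331 in replicates 1 and 2, and passed background in replicate 2 alone. Its signal in replicate 2 was at least 1.52-fold that in replicate 3 and at least 2.10-fold that in replicate 1. 1458887_at placed replicate 3 highest instead, with 223 in replicate 3, against 105 and 127, and passed background in replicate 3 alone. Both placed replicate 2 above replicate 1 as aligned, though on 1458887_at neither of these samples passed background and their log2 difference was 0.04. A level of Tcf21 that both probe sets share was therefore not measured.

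Sim1, a bHLH-PAS factor known for its part in hypothalamic neurons and also expressed in embryonic mesoderm, showed the widest spread of the 7 genes above background. 1420736_at had a signal of 4487 in replicate 3, against 1217 and 1602 in replicates 1 and 2. 1449967_at had 2943 in replicate 3, against 367 and 977. On both probe sets replicate 3 lay above either other sample, and replicate 1 was lowest, except for 1420736_at with alignment on all probe sets, where replicate 2 was. After alignment the first was 3.46-fold higher in replicate 3 than in replicate 1 and 3.08-fold higher than in replicate 2. The second was 7.54-fold and 3.32-fold higher. These were the only member probe sets of the 15 above background in 3 of 3 with replicate 3 over 2-fold above both other samples, where 1.07% of all such probe sets were, and they were so under each of the scalings tried. None lay over 2-fold below both, where 0.836% of all did.

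The Sim1 window is given because, of the 7 genes above background in 3 of 3, this one differed most between samples.
Sim1 (GRCm38.p6, chr10:50895401-50895650, plus strand): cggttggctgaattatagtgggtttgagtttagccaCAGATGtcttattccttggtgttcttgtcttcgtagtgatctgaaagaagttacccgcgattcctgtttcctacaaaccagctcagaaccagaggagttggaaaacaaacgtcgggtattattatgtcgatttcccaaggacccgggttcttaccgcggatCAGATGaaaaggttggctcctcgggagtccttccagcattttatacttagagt
It held 2 E-boxes, both with the letters CAGATG, which occur in reverse (CATCTG) in the first E-box of Hand2. It held no ACGTG on either strand, the core bound by Sim and Arnt dimers, which 16.6% of all windows hold and which occurred once in the Hand2 window.

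Skeletal muscle and liver markers ran the other way. Of the skeletal muscle markers above background in 3 of 3 samples, 5 of 5 were lowest in replicate 3, among them Actc1 at 1201 in replicate 3, against 10655 and 3639 in replicates 1 and 2. Of the liver markers above background in 3 of 3, 4 of 4 were lowest in replicate 3, where 26.4% of all such probe sets were. The partner genes of Sim1 differed less between samples. Arnt read 5916 in replicate 3, against 6067 and 5038, and Arnt2 read 2940 in replicate 3, against 3676 and 2917. Of the 10 PAS genes listed, 8 were above background in 3 of 3 samples, where 60.6% of all genes were. Of these 8, 0 had replicate 3 over 2-fold outside the other samples. Of all probe sets above background in 3 of 3, 1.07% lay so above and 0.836% so below. The hypoxia factor gene Hif1a (22415 in replicate 3, against 13879 and 14027) was highest in replicate 3, and the ligand-activated receptor gene Ahr (20484, against 29435 and 29299) was lowest there.

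Across the 11019 other genes above background in 3 of 3 samples, the profile nearest to Sim1 was that of the T-box factor gene Tbx18. Tbx18 had 4142 in replicate 3, against 1134 and 1431 in replicates 1 and 2. Its distance from Sim1 in log2 deviation from the gene's own mean was 0.045, and the next were Gigyf2 at 0.098 and Ttc39b at 0.158. Gigyf2 and Tbx18 were the 2 genes within 0.1. The likeness is over 3 samples and is a description only.

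Sim2, the paralogue known from midline and muscle development, was not above background in any sample. 1419438_at read 145 in replicate 3, against 114 and 91.1 in replicates 1 and 2, and 1419437_at read 83.6 in replicate 3, against 92.9 and 25.2.

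All 4 Id genes were above background in every sample. Id1, the classical BMP-induced inhibitor, had 3064 in replicate 3, against 4941 and 7795 in replicates 1 and 2. Id3 had 4418 in replicate 3, against 7630 and 10598. For both genes replicate 3 was lowest and replicate 2 highest. After alignment Id1 was 0.58 times the level of replicate 1 and 0.43 times that of replicate 2 in replicate 3, and Id3 was 0.54 and 0.46 times. Id1 and Id3 each have 1 probe set, so neither value has a check from another probe set.

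Id2 and Id4 had smaller SDs than Id1 and Id3 on their brightest probe sets. Id2, which is also expressed in limb bud and epithelia, had 12176 in replicate 3, against 12330 and 15096 in replicates 1 and 2, on 1435176_a_at. Its aligned SD was 0.09, against a median of 0.365 over all probe sets above background in 3 of 3, and reached 0.253 with quantile normalization. A dimmer Id2 probe set, 1422537_a_at, read 430 in replicate 3, against 456 and 713, and 1453596_at was above background in no sample. Id4, known from neural and mammary progenitors, had 4757 in replicate 3, against 4478 and 6337 in replicates 1 and 2, on 1450928_at. Its probe set 1423259_at read 1910 in replicate 3, against 3113 and 3152. The Id4 probe sets thus disagree on whether replicate 3 lay below replicate 1. As deposited it lay above on 1450928_at and below on 1423259_at. The dimmest, 1423260_at, read 100 in replicate 3, below background, against 154 and 278 above it.

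Most of the Id probe sets shared an order of samples as aligned. Of 6 above background in 3 of 3, all 6 were lowest in replicate 3, where 26.4% of all such probe sets were, and 5 were also highest in replicate 2, where 9.86% of all had both places. Probe sets of 1 gene and genes of 1 sample are not replicates, and the Id4 probe set 1450928_at had a log2 difference of -0.002 between replicates 3 and 1. The count lowest in replicate 3 was 5 without alignment, 6 with alignment on all probe sets and 4 with quantile normalization. The shares of all such probe sets lowest there were 29.4%, 24.3% and 29.3% under the same settings. The count highest in replicate 2 was 6, 0 and 6 under the same settings, so the position of replicate 2 depends on the scaling while Id1 and Id3 stayed lowest in replicate 3 under each.

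Promoter windows of 3 Id genes are shown because their brightest probe sets shared that order of samples as aligned, though the order changed with the scaling. Capitals again mark E-boxes.
Id2 (GRCm38.p6, chr12:25096093-25096342, minus strand): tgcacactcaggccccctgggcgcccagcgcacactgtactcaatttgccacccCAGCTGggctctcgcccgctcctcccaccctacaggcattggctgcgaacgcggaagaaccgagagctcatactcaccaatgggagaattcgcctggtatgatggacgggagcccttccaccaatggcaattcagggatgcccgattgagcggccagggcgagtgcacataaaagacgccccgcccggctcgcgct
Id3 (GRCm38.p6, chr4:136143572-136143821, plus strand): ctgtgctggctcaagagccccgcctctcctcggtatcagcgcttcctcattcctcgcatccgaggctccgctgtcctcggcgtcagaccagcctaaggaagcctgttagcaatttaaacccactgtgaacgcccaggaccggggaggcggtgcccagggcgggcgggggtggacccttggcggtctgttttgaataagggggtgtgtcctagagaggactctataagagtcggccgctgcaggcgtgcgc
Id4 (GRCm38.p6, chr13:48260866-48261115, plus strand): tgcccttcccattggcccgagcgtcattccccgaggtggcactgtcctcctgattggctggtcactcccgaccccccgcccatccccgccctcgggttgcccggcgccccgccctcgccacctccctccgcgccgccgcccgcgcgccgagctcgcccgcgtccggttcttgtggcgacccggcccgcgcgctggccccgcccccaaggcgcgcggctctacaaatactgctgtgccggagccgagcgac
Of these 3, only the Id2 window held an E-box. GGCGCC, a GC-rich element of BMP-responsive promoters bound by Smad proteins, occurred once each in the windows of Id2, Id4 and Hand2, and in 9.59% of all windows, and was not found in the Id3 or Sim1 windows. G and C made up 62.8% of the Id2 and Id3 windows and 75.6% of that of Id4, against 45.6% for Sim1. These are letter matches and say nothing of occupancy.

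Of 19 BMP pathway genes, the known input to the Id genes, 15 were above background in 3 of 3 samples, where 60.6% of all genes were. The ligand gene Bmp4 had 5225 in replicate 3, against 12278 and 9896 in replicates 1 and 2. The inhibitory Smad gene Smad6 had 948 in replicate 3, against 1638 and 2560, and the pseudoreceptor gene Bambi had 13501, against 25598 and 23607. These values, like those of Id1 and Id3, were lowest in replicate 3 under each of the 4 scalings. Grem1, a secreted BMP antagonist, went the other way, with 980 in replicate 3, against 174 and 528. It was the 1 gene of the 15 with replicate 3 over 2-fold above both other samples, where 1.07% of all such probe sets were. Bmp5 (13586 in replicate 3, against 6228 and 10724) and Smad5 (17833, against 7304 and 15390) were also highest in replicate 3. As aligned, so were Bmpr2, Acvr1, Acvr2a and Smad1. None of the 15 was called in the landmark contrast below. Of the 15, 6 were lowest in replicate 3, where 26.4% of all probe sets above background in 3 of 3 were. The list's median log2 difference in the landmark contrast was 0.12, against 0.03 over all those probe sets. Nog, Bmpr1b, Smad9 and Chrdl1 were above background in no sample.

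**Figure D2:**
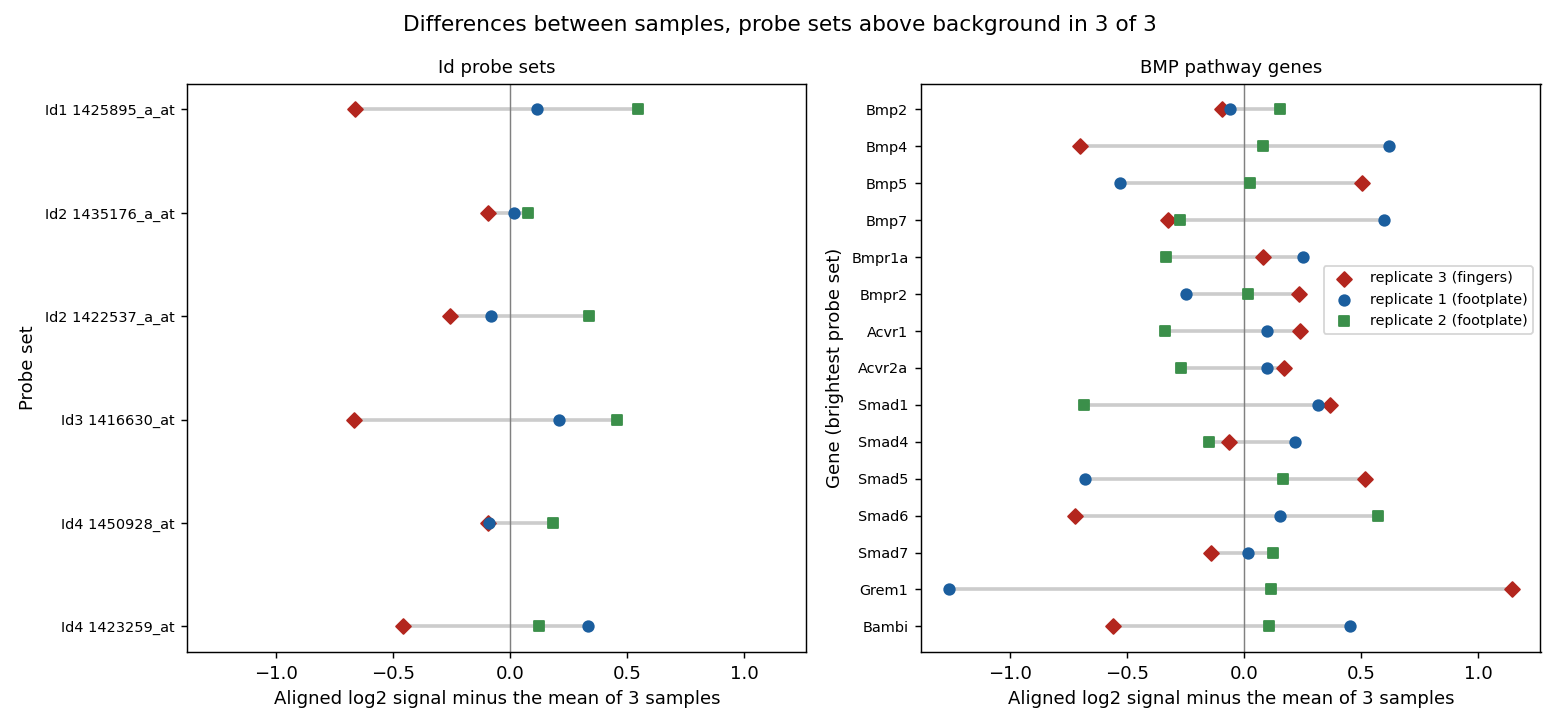
Aligned log2 signal minus the mean of the 3 samples (x axis) for the 6 Id probe sets and the 15 BMP pathway genes above background in 3 of 3; red diamonds are replicate 3 (fingers visible), blue circles replicate 1 and green squares replicate 2 (footplate borders indented). All 6 Id probe sets have replicate 3 at the left (4 to 6 under other scalings). Of the BMP pathway genes, Bmp2, Bmp4, Bmp7, Smad6, Smad7 and Bambi have it at the left. Grem1, Bmp5, Bmpr2, Acvr1, Acvr2a, Smad1 and Smad5 have it at the right.

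Tcf4, the E-protein, was above background in 3 of 3 samples on all 6 of its probe sets, but these fell into different patterns. 1416723_at had 36262 in replicate 3, against 37404 and 45587 in replicates 1 and 2. 1434148_at had 40796 in replicate 3, against 33512 and 36495. The order of samples on 1434148_at changed with the scaling. These bright probe sets were near even as aligned (SD 0.10 and 0.15), though that of 1416723_at was 0.253 with alignment on all probe sets. The other 4 were not: 1434149_at read 14441 in replicate 3, against 5174 and 17531, and 1416724_x_at read 5443, against 4863 and 11923. 1424089_a_at read 5075 in replicate 3, against 3985 and 10278, and 1416725_at read 274, against 237 and 518. On these 4, replicate 1 was lowest and replicate 2 highest as aligned. With alignment on all probe sets replicate 3 was lowest on 3 of them and highest on 1434149_at, and with quantile normalization it was lowest on 1416725_at. With the Sim1 probe sets, 6 of 15 members were lowest in replicate 1, where 31.7% of all probe sets above background in 3 of 3 were. 1434149_at and 1449967_at of Sim1 had replicate 1 over 2-fold below both other samples, as had 7.09% of all probe sets above background in 3 of 3.

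Control probe sets that bear on RNA length also differed between samples. The signal at the 3′ end of beta-actin was 4.42 times that at its 5′ end in replicate 3, against 7.38 and 2.21 times in replicates 1 and 2. For Gapdh the ratio was 14.1 in replicate 3, against 21.5 and 14.9. The levels of these controls ran in opposite orders, since replicate 1 was lowest and replicate 2 highest on all 3 beta-actin probe sets, and replicate 2 lowest and replicate 1 highest on all 3 for Gapdh. The part of RNA length in the Tcf4 values was not tested, since the positions of its probe sets along the transcript were not used here. Of the other E-protein genes, Tcf3 read 5697 in replicate 3, against 8532 and 11038 in replicates 1 and 2, and Tcf12 read 52475, against 41272 and 47946.

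**Figure D3:**
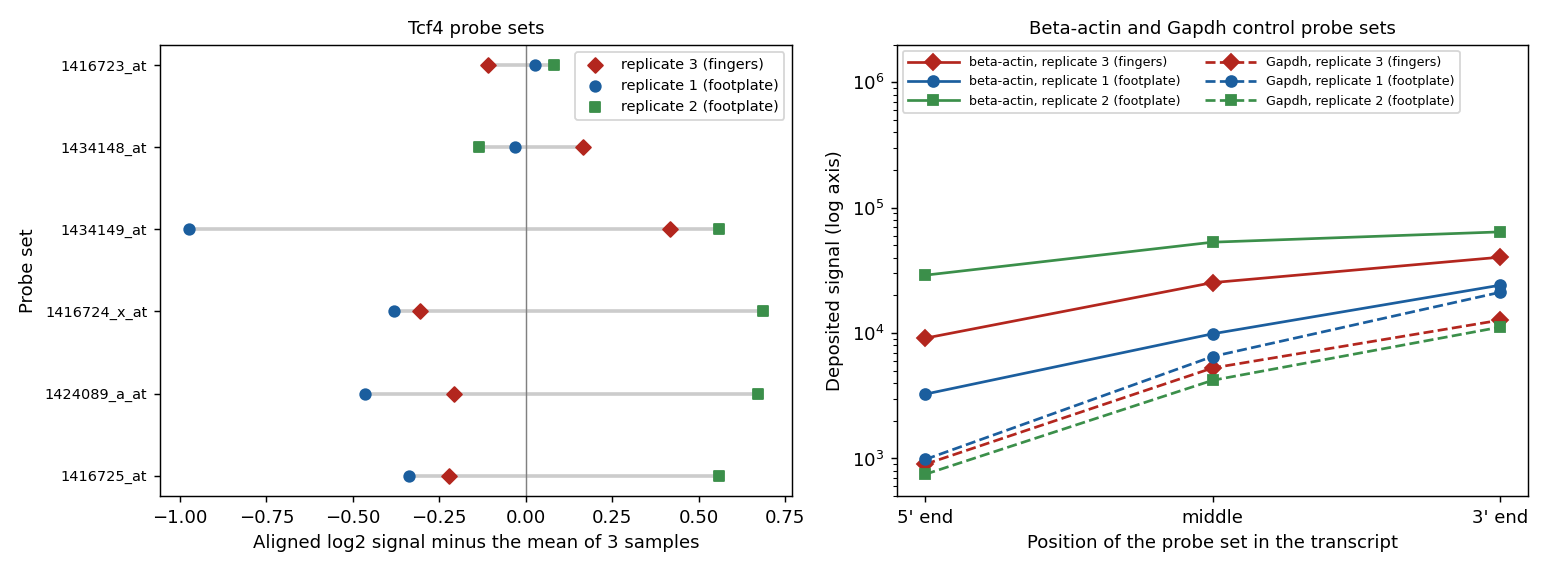
Left, aligned log2 signal minus the mean of the 3 samples for the 6 Tcf4 probe sets; right, deposited signal (log axis) of the beta-actin (solid) and Gapdh (dashed) control probe sets from the 5′ to the 3′ end, with 1 colour per sample. The 2 brightest Tcf4 probe sets hold the samples close together, while the other 4 place replicate 1 lowest and replicate 2 highest as aligned (with alignment on all probe sets, 3 of them have replicate 3 lowest and 1 has it highest). The beta-actin controls show replicate 1 lowest and replicate 2 highest, and the Gapdh controls show replicate 2 lowest and replicate 1 highest.

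Of 27 other tissue-restricted bHLH genes listed, 25 were measured. Of these, 7 were above background in 3 of 3 samples and 14 in none, where 60.6% and 26.6% of all genes were. The neurogenic factor genes Neurog2 and Neurod1 were among those 14. The mesenchymal factors Twist1 (11348 in replicate 3, against 10054 and 18346) and Twist2 (7883, against 4384 and 4417) were the brightest. Of the 7, the blood factors Tal1 (755 in replicate 3, against 4505 and 961) and Lyl1 (242, against 833 and 751) and the muscle factor Myog (231, against 858 and 296) were lowest in replicate 3. That is 3 of 7, where 26.4% of all probe sets above background in 3 of 3 were lowest there. Other muscle factors had another order, as Myod1 read 362 in replicate 3, against 459 and 246, and Msc read 231, against 628 and 220. Lyl1 was the 1 gene of the 7 with replicate 3 over 2-fold below both other samples, where 0.836% of all such probe sets were. A list of Hes and Hey repressors, some of them targets of Notch signalling, also held Bhlhe40 and Bhlhe41. Of its 8 genes, 6 were above background in 3 of 3, where 60.6% of all genes were. Of these 6, 3 were lowest in replicate 3, where 26.4% of all such probe sets were. Among those 3 were Hey1, at 3304 in replicate 3, against 9130 and 5009, and Hes1, at 1267, against 2028 and 2438.

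The landmark contrast asked whether expression differed between the embryo with visible fingers and those with indented footplate borders. Among the 15 member probe sets above background in 3 of 3, those furthest from 0 were both of Sim1, higher in replicate 3, and those of Id1 and Id3, lower. With limma across the 29121 probe sets that passed background in 1 or more samples, Sim1 had a log2 difference of 1.71 ± 0.60 (SE) on 1420736_at and 2.32 ± 0.79 on 1449967_at. Id1 had -0.99 ± 0.63 and Id3 -1.001 ± 0.61. Hand2 (-0.07 ± 0.60), Id2 (-0.14 ± 0.60), Id4 (-0.14 ± 0.61) and Tcf4 (-0.16 ± 0.60) lay nearer 0 on their brightest probe sets. Dimmer Id4 probe sets gave -0.69 ± 0.61 (1423259_at) and -1.02 ± 0.66 (1423260_at, not above background in replicate 3). Of the other genes, Tcf21 had -3.44 ± 0.78 on 1417447_at and 0.97 ± 0.60 on 1458887_at, and Hand1 had 1.42 ± 1.12 on 1417525_at, each above background in 1 sample. Over the 7 genes above background in 3 of 3 the median was -0.14. None of the 19 member probe sets tested passed a Benjamini-Hochberg adjusted threshold of 0.05 (limma adjusted p = 1 for each), nor did any of the 29121, a share of 0%.

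Before adjustment, limma gave p under 0.05 for 3 of the 19, where 2.1% of all probe sets tested had it. They were both Sim1 probe sets (unadjusted p = 0.0476 and 0.0425) and 1417447_at of Tcf21 (unadjusted p = 0.0117), whose fitted value rests on signals not above background in replicates 3 and 1. The 19 include both Tcf21 probe sets and 1417525_at of Hand1, which passed background only in the sample where each was highest. That filter favours a difference between samples, so the count of 3 is not support for one. It was smaller under several other filters and alignments. The contrast sets 1 sample against 2 and has 1 residual degree of freedom, so the SEs borrow mostly from the whole table. Even Xist (log2 difference 10.99 ± 1.69, SE) and Eif2s3y (-6.72 ± 0.63) did not pass the adjusted threshold. The lack of a call for the members therefore says little about whether they differed. Replicate 3 alone is taken to vary as the other samples do. The labels do not state litters or batches.

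**Figure D4:**
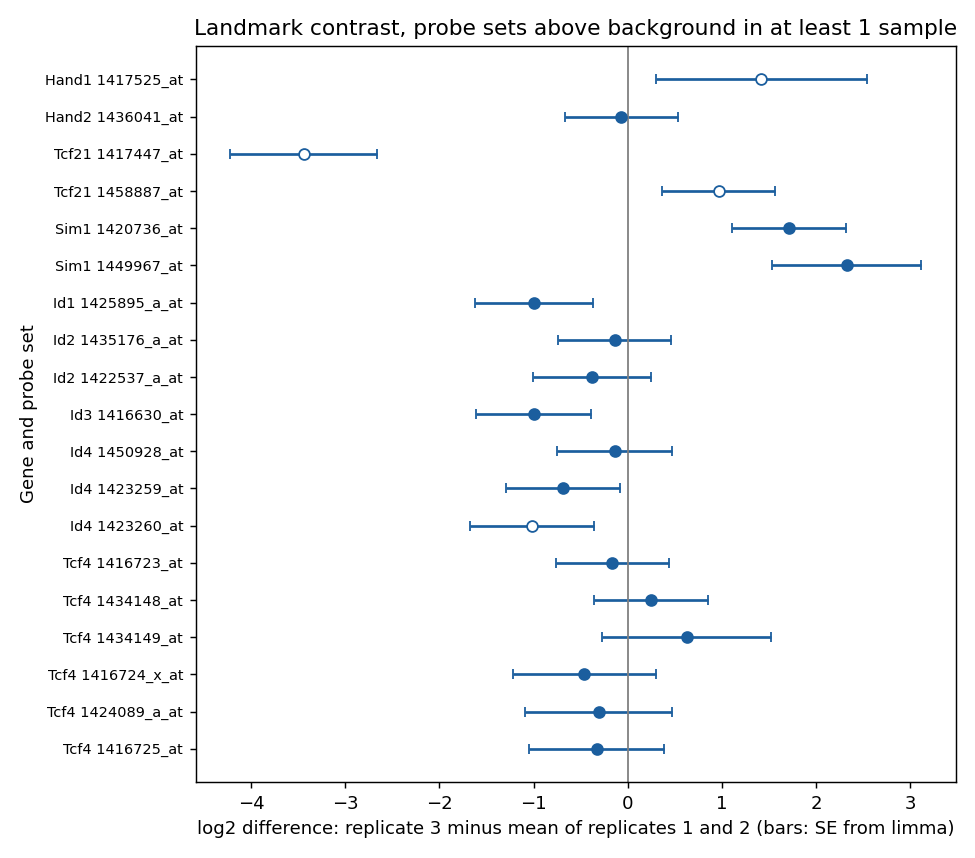
Log2 difference of replicate 3 (fingers visible) minus the mean of replicates 1 and 2 (footplate borders indented) for the 19 member probe sets tested, with SE from limma; open points were not above background in every sample. Both Sim1 probe sets lie to the right of 0 and Id1 and Id3 to the left, and none passed the adjusted threshold.

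Between pairs of samples, 4 of the 15 member probe sets above background in 3 of 3 differed over 2-fold between replicates 3 and 2, where 9.89% of all did. They were both Sim1 probe sets, Id1 and Id3. Between replicates 3 and 1 the count was 3 of 15, namely both Sim1 probe sets and 1434149_at of Tcf4, where 13.8% of all differed so. Between replicates 2 and 1 it was 4 of 15, namely 1449967_at of Sim1 and 3 Tcf4 probe sets, where 20.2% of all did.

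The spread of the 7 genes over the samples ran from an SD of 0.05 for Hand2 to 0.99 for Sim1 on the aligned log2 scale. Id2 (0.09), Tcf4 (0.10) and Id4 (0.16) followed Hand2, and Id3 (0.59) and Id1 (0.61) came next to Sim1. The order among the genes of low SD depends on the scaling: with alignment on all probe sets Hand2 (0.288) lay above Tcf4 (0.253), Id2 (0.243) and Id4 (0.164), while Sim1 had the highest SD of the 7 under each of the 4 scalings. Without replicate 3 the SD of Sim1 was 0.119. Thus, as aligned, 3 of 7 lay above the median of all probe sets above background in 3 of 3, which 50% do by construction. Hand2, Id2, Id3, Id4, Id1 and Tcf4 belong to the brightest level tertile, where the median SD was 0.32, and Sim1 to the middle one, at 0.37.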

How the data were processed

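RNA of 3 genital tubercles was hybridised to 1 array each after 2 rounds of amplification, per the labels. The deposited values are linear intensities, 1 per probe set and sample, made by the authors with GCOS, as the submitters' processing notes say. Version and algorithm: not given in the sources used here. Their mean after trimming 2% at each end is 1500.0 in every sample, so a global scaling came before deposit, and the median was 272.4 in replicate 3, against 204.8 and 333.6 in replicates 1 and 2. Arrays give no depth, and their number limits the precision.

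Of 45101 probe sets, 64 controls were set aside. A platform annotation gave 34945 probe sets 1 gene symbol, 932 several and 9160 none, and only the first were named. Symbols were looked up by Entrez identifier in RefSeq (GRCm38.p6), where 34754 matched and 0 changed. A gene stands for its brightest probe set. Signals under 1 were set to 1 and taken to log2. Samples were aligned on the median of probe sets above background in 3 of 3, by log2 shifts of 0.02 in replicate 3 and 0.11 and -0.12 in replicates 1 and 2, since the medians of these probe sets spanned 0.23, and those of the whole array 0.70. A fold against a sample not above background uses that sample's background, or its own signal if higher. The landmark contrast used limma 3.58.1 (lmFit, eBayes, two-sided) in R 4.3.3. On simulated data, where all samples varied alike, it was checked only for recovering the size of the largest added difference. Genes named were all members, the fixed lists and, for the member with the largest spread, the 3 genes nearest in profile; within lists, examples are the brightest, those over 2-fold outside the others in replicate 3 and some chosen after their values were seen. The members and lists were chosen with earlier results of these data known. Motifs were chosen with the values known.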

Additional observations from a re-analysis of the deposited data

How the results depend on the processing

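The 7 genes above background in 3 of 3 samples were 7 with the background at the 90th or 99th percentile and 7 without any 1 replicate, and 6 when a gene was read as the median of its probe sets. The 15 member probe sets above background were 15 to 16 without 1 replicate. No member was called by limma under any setting tried. Over all probe sets the count of 0 became 86 with alignment on all probe sets and 1 with only probe sets above background in 3 of 3, and stayed 0 under the others. With alignment on all probe sets Id1 joined Sim1 as over 2-fold outside the other samples in replicate 3 (3 probe sets in place of 2). No landmark difference of a member's brightest probe set reversed under these settings, and the cause of these changes was not tested. A dimmer probe set can have the other sign, as 1458887_at of Tcf21 had 0.97 where 1417447_at had -3.44. Without replicate 1 the Sim1 difference was 1.62 and without replicate 2 it was 1.79, with no residual degree of freedom and so no test. As the median of a gene's probe sets, the Tcf21 difference of -3.44 was -1.24, that of Id4 was -0.69 in place of -0.14 and that of Id2 was -0.38 in place of -0.14. Of the recomputed SDs over samples, 10 moved by more than the SD itself and 46 by less. With alignment on all probe sets the SD was 0.288 for Hand2, 0.243 for Id2 and 0.253 for Tcf4, with quantile normalization 0.128 for Hand2 and 0.253 for Id2, and without alignment 0.174 for Id2. As the median of probe sets it was 1.402 for Hand2, 0.304 for Id2, 0.412 for Id4 and 0.542 for Tcf4. The landmark count over all probe sets had no value with 1 of the samples left out. No paired analysis was possible because the samples form 1 group. Signal near background limits Hand1, Tcf21 and Sim2.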
